A study of Homo sapiens with 6 samples.

Results

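Transcript levels of 9 transcription factors that specify or maintain the macrophage lineage were examined: SPI1, CEBPA, CEBPB, CEBPD, MAF, KLF4, KLF2, RUNX1 and MITF. They were chosen by symbol and are 9 of the 17513 genes in the deposited tables. Polyadenylated RNA was sequenced in 6 libraries, 3 for each of 2 media. According to the series design, THP1 cells (a leukemia line of monocytic origin) had been made into macrophages and then spent 48 h in medium from KYSE150 cells, a squamous carcinoma line of the esophagus. In the group called shNC medium here, the KYSE150 cells carried the hairpin shNC. In the group called shSPP1#2 medium, they carried shSPP1#2, 1 hairpin against SPP1, the gene of the secreted glycoprotein osteopontin. How THP1 cells were turned into macrophages was not given in the sources used here, and nothing says that the replicates were separate cultures. The p-values therefore measure only the spread of these samples, possibly a technical one.

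The sample labels name KYSE150 itself, so the cells were checked by their RNA. Of 15 monocyte and macrophage markers, 13 reached 1 FPKM (fragments scaled to gene length and library size) in every library, and MRC1 and CYBB did not. Of 17 deposited squamous epithelial markers, 2 did, KRT15 (2.75 to 4.01 FPKM) and ITGA6 (10.9 to 12.1 FPKM). The keratins KRT5 and KRT14, which define basal squamous cells, stayed between 0 and 0.04 FPKM. Of 11 deposited squamous transcription factors, 3 reached 1 FPKM in every library. They were TFAP2A (10.7 to 12.2 FPKM), PITX1 (3.79 to 4.17 FPKM) and KLF5 (2.34 to 2.96 FPKM). TP63 measured 0.35 to 0.61 FPKM and SOX2 0.02 to 0.16 FPKM. KRT5 and KRT14 were thus at or near 0 in both groups, though some other squamous genes were not. The groups are named here by the hairpin in each sample label. SPP1 measured 2075, 2011 and 1890.4 FPKM in shNC medium and 2061, 2014 and 1932 FPKM in shSPP1#2 medium, which is the macrophages' own transcript and does not check the knockdown. Libraries held 18113591 to 20626346 estimated counts in total.

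SPI1 encodes PU.1, an ETS-family factor that opens chromatin at myeloid genes and is needed to form macrophages. The C/EBP factors pair through leucine zippers and act with PU.1: C/EBP alpha drives myeloid commitment, while C/EBP beta and delta respond to inflammatory signals. RUNX1 starts the blood program, MAF restrains macrophage self-renewal, KLF2 and KLF4 are zinc-finger factors of monocytes and resting myeloid cells, and MITF controls lysosomal and osteoclast genes. In bulk RNA, a smaller number of expressing cells and less RNA per cell cannot be told apart.

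The upstream sequences of 4 members are shown. They are those of the most abundant transcript (CEBPB), of an intronless relative (CEBPA), of the least abundant (KLF2) and of the member of smallest p between the media (MAF). Each is the 250 bases before a RefSeq start on GRCh38.p14, written 5' to 3' on the gene's strand. Capitals mark the GC box GGGCGG, to which Sp and KLF factors bind, and the TATA box TATAAA, both searched on both strands. The windows are chr20:50190333-50190582 (plus strand) for CEBPB, chr19:33302535-33302784 (minus) for CEBPA, chr19:16324576-16324825 (plus) for KLF2 and chr16:79600738-79600987 (minus) for MAF.
CEBPB: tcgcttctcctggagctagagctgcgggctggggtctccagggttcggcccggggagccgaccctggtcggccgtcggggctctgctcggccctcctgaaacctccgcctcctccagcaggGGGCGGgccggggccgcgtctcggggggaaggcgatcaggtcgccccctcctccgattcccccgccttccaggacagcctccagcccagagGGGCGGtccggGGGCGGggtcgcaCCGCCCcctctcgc
CEBPA: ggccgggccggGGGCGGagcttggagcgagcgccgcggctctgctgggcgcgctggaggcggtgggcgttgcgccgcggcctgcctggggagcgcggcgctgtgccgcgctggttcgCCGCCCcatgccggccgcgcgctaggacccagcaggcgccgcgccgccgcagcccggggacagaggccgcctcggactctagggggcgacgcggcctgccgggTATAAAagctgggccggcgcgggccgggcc
KLF2: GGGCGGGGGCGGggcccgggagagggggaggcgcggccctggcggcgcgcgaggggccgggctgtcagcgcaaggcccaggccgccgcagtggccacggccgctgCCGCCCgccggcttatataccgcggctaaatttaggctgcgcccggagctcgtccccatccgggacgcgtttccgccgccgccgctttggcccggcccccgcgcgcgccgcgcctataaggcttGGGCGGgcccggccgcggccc
MAF: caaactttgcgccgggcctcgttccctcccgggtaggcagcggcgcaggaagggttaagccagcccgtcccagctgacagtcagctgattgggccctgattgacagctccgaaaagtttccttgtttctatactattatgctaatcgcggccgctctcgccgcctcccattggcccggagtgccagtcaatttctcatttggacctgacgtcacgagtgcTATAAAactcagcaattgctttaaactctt
RefSeq entries were matched for 7 members (10 starts); SPI1 and CEBPD were not matched. GC boxes stood in 7 of the 10 windows, against 42.6% of 35116 promoters of the same length. The 2 printed windows of CEBPB and KLF2, the top and bottom of the range of levels, held 4 GC boxes each, as did those of KLF4 and the first MITF start. A second CEBPB start held 5, at 77.6% GC. The GC contents of the printed CEBPB and KLF2 windows were 75.6% and 80.0% (median of all promoters 58.0%). TATAAA stood in 4 of the 10 windows, against 10.7% of promoters. In CEBPA and MAF its first base lay 30 bases before the start, and at the second CEBPB start 29 bases before it. The MAF window, at 54.4% GC, held no GC box. Motifs of the members themselves were also searched on both strands: GAGGAAGT (SPI1), TTGCNNAA (C/EBP), GGGTGTGG (KLF), TGTGGTT (RUNX), TCACGTG (MITF) and TGCTGAC (MAF), found in 2.17%, 9.05%, 2.97%, 3.65%, 3.31% and 3.43% of promoters. The only match in the 10 windows was TGCTGAC before the first MITF start, 225 bases upstream. Matches overlapped only in the 2 GC boxes nearest that start. Such matches describe letters in a window, not bound sites.

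Between the media, none of the 9 factors changed by the test applied, and their levels stood in the same order in every library. With the edgeR quasi-likelihood test, 0 of 9 members were called at an adjusted p below 0.05, where 0% of the 13555 tested genes were. At an unadjusted p below 0.05 it gave 0 members, against 6.85% of tested genes. Limma-voom, edgeR with robust dispersion and limma on log2 FPKM also called 0 members. DESeq2 called 0 of the 5 members to which its default filter left an adjusted p, and CEBPD, KLF4, KLF2 and MITF received none. Replicates of the 2 groups overlapped for all 9, whereas in CPM (counts scaled to library size) 11.1% of tested genes had groups that did not overlap, 5.63% higher and 5.5% lower in shSPP1#2 medium. Log2 fold changes (shSPP1#2 minus shNC medium) were positive for 6 members and negative for 3, where 49.9% of tested genes were positive. Their median was 0.021, and that of all tested genes was -0.00030. The 95% interval lay within 0.35 of 0, a change of 1.27-fold, for 8 of the 9; KLF2, the rarest, was the exception.

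**Figure D1:**
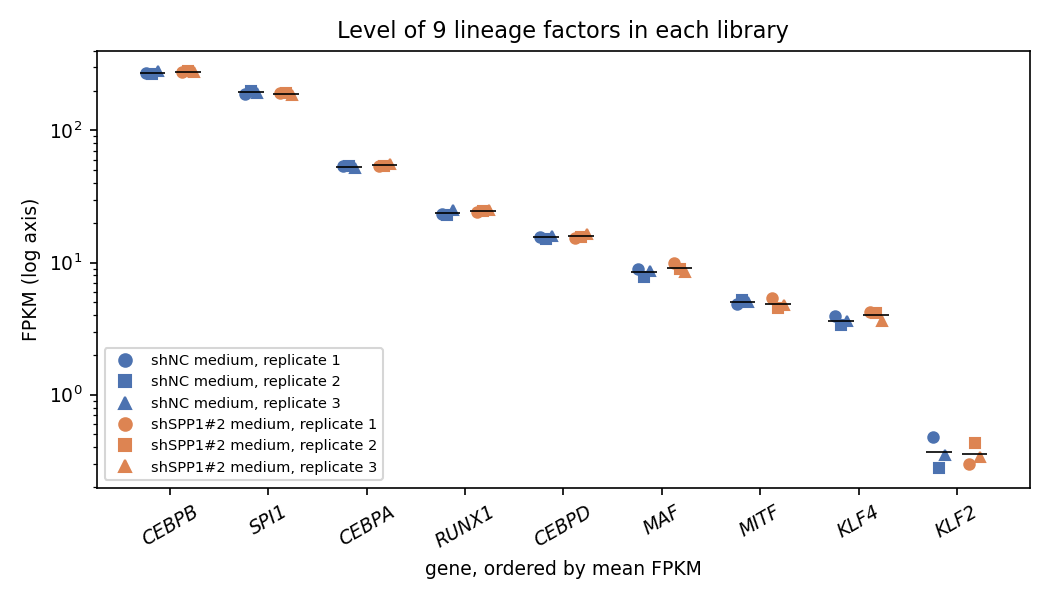
FPKM (log axis) of the 9 factors in each library, ordered by mean level; blue points are shNC medium, orange points shSPP1#2 medium, symbols mark replicates and short lines the group means. Levels run from 284 FPKM for CEBPB down to 0.28 FPKM for KLF2, and the 2 groups overlap for every gene.

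The order of levels per length was CEBPB, SPI1, CEBPA, RUNX1, CEBPD, MAF, MITF, KLF4 and KLF2. All 8 pairs of neighbours were separate over the 6 libraries. The closest pair was MITF and KLF4, where the lowest MITF value was 4.54 FPKM and the highest KLF4 value 4.21 FPKM. CEBPB stood at percentile 98.7 of all deposited genes by mean FPKM, SPI1 at 98.1, MAF at 65.4 and KLF2 at 28.7. Of the members, 8 exceeded 1 FPKM in every library.

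SPI1 (gene identifier 6688) was among the abundant transcripts at 190.03, 198.8 and 192.7 FPKM in shNC medium and 191.2, 193.5 and 184.3 FPKM in shSPP1#2 medium. The highest library was shNC replicate 2 and the lowest shSPP1#2 replicate 3, with the others between them in both groups. Group means were 193.8 ± 4.47 and 189.7 ± 4.79 FPKM (SD, n = 3). SPI1 had a log2 fold change of -0.036 (SE 0.045, 95% interval -0.13 to 0.058, edgeR adjusted p = 0.926), which was -0.0061 without shSPP1#2 replicate 3 and -0.058 without shSPP1#2 replicate 2. SPI1 took 99.8% to 99.9% of the summed FPKM of its subfamily, as SPIB measured 0.19 to 0.33 FPKM and SPIC 0 to 0.03 FPKM. The gene lies on the minus strand of chromosome 11, 47354860 to 47378576, in GENCODE v29 (GRCh38).

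Other ETS factors of blood cells gave no call: of 9 tested (10 deposited), 0 passed edgeR at either the adjusted threshold or an unadjusted p below 0.05, and the median log2 fold change was 0.022. ETS1, a lymphoid and endothelial factor, was the most abundant of them at 122 to 131 FPKM. ELF1 measured 0.069 (-0.026 to 0.16), ETV6 0.067 and GABPA 0.070 as log2 fold changes. Of 24 myeloid genes listed as PU.1 targets, 0 were called, 13 had positive and 11 negative log2 fold changes, and the median was 0.010. At an unadjusted p below 0.05 there was 1 higher and 1 lower gene, against 3.45% and 3.39% of tested genes. The higher was CSF2RB, the shared chain of the GM-CSF and IL-3 receptors, at 21.2 ± 1.30 FPKM in shNC and 23.1 ± 1.61 FPKM in shSPP1#2 medium (SD, n = 3; log2 fold change 0.12). The lower was FCER1G, the signaling chain of Fc receptors, at 408.5 ± 42.2 and 361 ± 14.1 FPKM (-0.18, -0.31 to -0.055; edgeR adjusted p = 0.575). TYROBP, a signaling adaptor, measured -0.13, and the integrin chain ITGB2, the most abundant of the list at 1445 to 1541 FPKM, measured -0.015.

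CEBPB (gene identifier 1051) had the highest level of the 9. It measured 271.6, 268.7 and 280.01 FPKM in shNC medium and 276.8, 283.6 and 276.6 FPKM in shSPP1#2 medium. The highest library belonged to shSPP1#2 medium and the lowest to shNC medium, and the spread over all 6 was 1.06-fold. Its log2 fold change was 0.021 (SE 0.043, 95% interval -0.069 to 0.11, edgeR adjusted p = 0.962), and ran from 0.00078 to 0.038 when libraries were left out singly.

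CEBPA (gene identifier 1050) measured 53.4, 53.8 and 52.3 FPKM in shNC medium and 53.7, 53.9 and 55.8 FPKM in shSPP1#2 medium. In FPKM shSPP1#2 replicate 3 was the highest library, and the groups overlapped. In CPM that library measured 140.8, against 139.1 in both shNC replicate 2 and shSPP1#2 replicate 2. CEBPA had a log2 fold change of 0.030 (-0.059 to 0.12, edgeR adjusted p = 0.940). That change was 0.018 with shNC replicate 3 left out and 0.046 with shNC replicate 2 left out. CEBPD (gene identifier 1052) measured 15.8, 15.2 and 16.0 FPKM in shNC medium and 15.4, 15.6 and 16.3 FPKM in shSPP1#2 medium. The 2 groups were interleaved, and the log2 fold change was 0.0065 (-0.15 to 0.16, edgeR adjusted p = 0.997).

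The proportions among C/EBP transcripts were also steady. The FPKM ratio of CEBPB to CEBPA was 5.15 ± 0.186 in shNC and 5.12 ± 0.156 in shSPP1#2 medium (SD, n = 3), and that of CEBPB to CEBPD was 17.5 ± 0.245 and 17.7 ± 0.677. Within the family, counted as CEBPA, CEBPB, CEBPD, CEBPE, CEBPG and DDIT3, CEBPB took 56.4% to 59.4% of the summed FPKM and CEBPA at most 11.8%. DDIT3, the stress-induced member also called CHOP, ranked next after CEBPB at 96.5 to 118 FPKM. CEBPE, the factor of late granulocytes, was the rarest at 0.55 to 1.06 FPKM. Among relatives, 0 of 4 were called. CEBPG, a short family member that serves as a dimer partner, measured 22.6 ± 1.56 FPKM in shNC and 25.1 ± 1.13 FPKM in shSPP1#2 medium, with every shSPP1#2 library above every shNC library in CPM. Its log2 fold change was 0.15 (0.042 to 0.26, edgeR adjusted p = 0.583). Values for DDIT3, CEBPE and the nucleolar CEBPZ were 0.017, -0.47 and -0.061, with a median of -0.022 over the 4, and for CEBPE every shSPP1#2 library lay below every shNC library in CPM.

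All 3 members of the family have 1 exon in GENCODE v29: CEBPA on chromosome 19 (minus strand, 33299934 to 33302564), CEBPB on chromosome 20 (plus, 50190734 to 50192689) and CEBPD on chromosome 8 (minus, 47736909 to 47739086). Annotated antisense transcripts share 25.0% and 18.3% of the exonic bases of CEBPA, and CEBPB-AS1 shares 11.8% of those of CEBPB. Whether counting used strand was not given in the sources used here, so reads from these stretches are uncertain.

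Genes listed as C/EBP targets showed 0 calls over 13 tested of 17, with 3 positive and 10 negative log2 fold changes and a median of -0.057. At an unadjusted p below 0.05, 4 were lower and 1, ELANE, was higher, against 3.39% and 3.45% of tested genes. S100A8 and S100A9, which form the calcium-binding dimer calprotectin, had log2 fold changes of -0.62 (-0.87 to -0.37, edgeR adjusted p = 0.142) and -0.36 (-0.57 to -0.16, edgeR adjusted p = 0.483). S100A8 measured 43.5 ± 8.36 FPKM in shNC and 28.4 ± 2.83 FPKM in shSPP1#2 medium (SD, n = 3), with groups that did not overlap. The chemokine CCL3, which has near-identical copies that make its counts uncertain, measured -0.21, and IL1B, the most abundant of the list with at least 10440 FPKM in every library, measured -0.057. By edgeR, S100A8 was called without shNC replicate 1 (adjusted p = 0.025) and with no low-count filter (adjusted p = 0.0158). CCL3 was called without shSPP1#2 replicate 2 (adjusted p = 0.049). With the replicate number as a block, edgeR called S100A8 (adjusted p = 0.0087), S100A9 (adjusted p = 0.0156) and CCL3 (adjusted p = 0.0087). The labels do not say what the replicate numbers mark. S100A8 and CCL3 were known from earlier results of these data when the list was written. The 3 C/EBP members beside them measured 0.021, 0.030 and 0.0065.

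RUNX1 (gene identifier 861) measured 23.2, 22.8 and 24.8 FPKM in shNC medium and 24.0, 24.7 and 25.02 FPKM in shSPP1#2 medium. Both shNC replicates 1 and 2 lay below the other 4 libraries, but shNC replicate 3 lay above 2 of the shSPP1#2 libraries. RUNX1 had a log2 fold change of 0.067 (SE 0.045, -0.028 to 0.16, edgeR adjusted p = 0.843), and it was 0.10 without shNC replicate 3. RUNX1 was not the leading member of its family per length: RUNX3 measured 31.3 to 36.4 FPKM and RUNX2, the bone factor, 6.89 to 8.23 FPKM. RUNX1 took 36.2% to 37.4% of the family's summed FPKM. Of RUNX2, RUNX3, RUNX1T1 and the shared partner CBFB, 0 of 4 were called (median log2 fold change 0.075). RUNX2 measured 0.12 (-0.0013 to 0.24), RUNX3 0.030 and RUNX1T1 0.27, the last at 0.07 to 0.14 FPKM.

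Of genes listed as RUNX1 targets, 5 of 7 deposited were tested and 0 were called, SPI1 and CEBPA being among them. The median log2 fold change was 0.030. The leukocyte integrin chain ITGAL measured 17.4 ± 0.2797 and 18.9 ± 0.782 FPKM (0.11, 0.013 to 0.21), and the neutrophil elastase gene ELANE 2.12 ± 0.436 and 2.88 ± 0.3495 FPKM (0.45, 0.041 to 0.86). Both had an unadjusted p below 0.05 and an edgeR adjusted p of 0.673 and 0.688. CSF1R, the receptor for macrophage colony-stimulating factor, was the most abundant at 196 to 227 FPKM and measured -0.079. RUNX1 spans 34787801 to 36004667 on the minus strand of chromosome 21, with 9 coding transcripts from 7 starts in GENCODE v29.

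MAF (gene identifier 4094) had the smallest p of the 9. It measured 8.87, 7.72 and 8.70 FPKM in shNC medium and 10, 8.91 and 8.42 FPKM in shSPP1#2 medium. A single library, shSPP1#2 replicate 1, stood above the rest, and in FPKM shSPP1#2 replicate 3 lay below 2 of the shNC libraries. In CPM, shSPP1#2 replicate 3 (51.99) lay below only shNC replicate 1 (54.79). Means were 8.43 ± 0.621 and 9.11 ± 0.809 FPKM (SD, n = 3). MAF had a log2 fold change of 0.11 (SE 0.064, -0.022 to 0.24, unadjusted p = 0.0964, edgeR adjusted p = 0.788). It was 0.028 without shSPP1#2 replicate 1, 0.15 without shNC replicate 1 and 0.17 without shSPP1#2 replicate 3 (unadjusted p = 0.0213, edgeR adjusted p = 0.724). No adjusted p for MAF fell below 0.417 in the alternatives run.

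MAF also differed from the other members in its spread. Its fitted biological coefficient of variation was 4.97%, above the 4.12% that the trend gives at its abundance, whereas the other 8 members lay below theirs. The gene length that links its estimated count to its FPKM, given the listed library total, ran from 5.89 to 6.41 kb between libraries, a range of 8.37% of the mean. It ranged by 4.19% for RUNX1 and 3.79% for MITF, and by at most 1.02% for the other 6 members. MAF on chromosome 16 (minus, 79585843 to 79600714) has 3 coding transcripts with 1 or 2 exons. Whether the mix of isoforms varied between libraries was not tested.

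**Figure D2:**
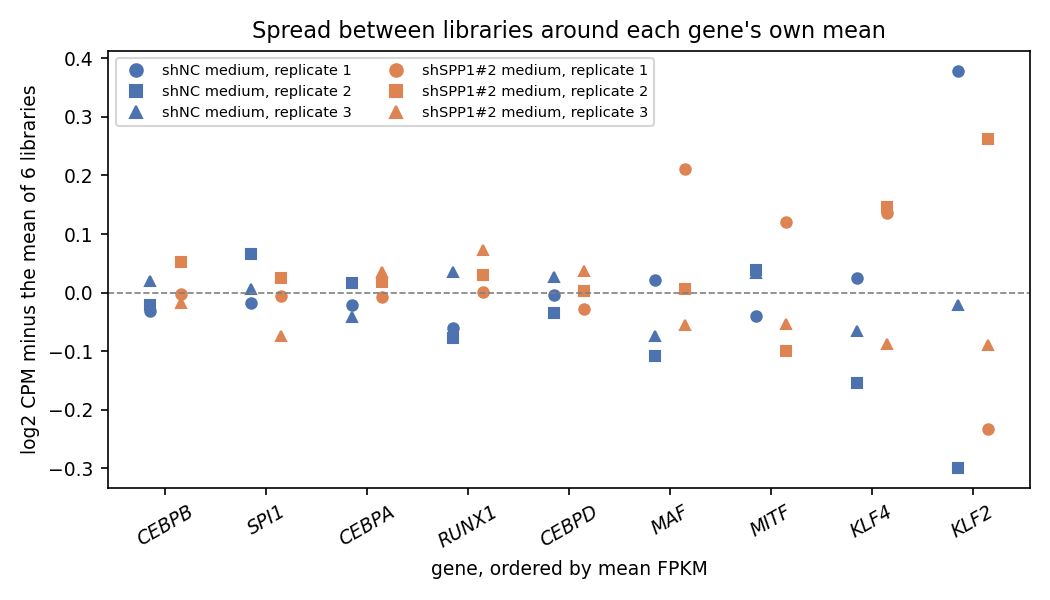
Log2 CPM of each factor minus its own mean over the 6 libraries; blue is shNC medium, orange shSPP1#2 medium and symbols mark replicates. The 5 most abundant genes stay within 0.08 of their means, while MAF in shSPP1#2 replicate 1 lies 0.21 above and KLF2 spreads from -0.30 to 0.38.

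Per length, MAF lay below the 3 small MAF factors in every library: MAFF measured 62.5 to 67.7 FPKM, MAFK 33.6 to 35.7 FPKM and MAFG 29.7 to 33.0 FPKM. Of 8 MAF relatives and BACH partners, 0 were called. BACH1, a heme-sensitive repressor that pairs with small MAF proteins, measured 22.5 ± 0.617 and 24.2 ± 0.215 FPKM (0.097, 0.0077 to 0.19, edgeR adjusted p = 0.691). For BACH1 every shSPP1#2 library lay above every shNC library in CPM. MAFF, a small MAF protein, measured 66.9 ± 0.907 and 63.1 ± 1.18 FPKM (-0.083, -0.17 to 0.0086), with every shSPP1#2 library below every shNC library in CPM. The retinal factor NRL lay at 0.15 to 0.43 FPKM and measured -0.43 (-1.09 to 0.24). The median of the 8 was 0.0052. Of 9 deposited genes listed as MAF-linked in macrophages, 5 were tested and 0 called, with a median of -0.016. The apoptotic-cell receptor MERTK was abundant enough to measure at 12.6 to 15.9 FPKM (0.068). The scavenger receptor CD163 measured -0.23 at 1.33 to 1.69 FPKM, with every shSPP1#2 library below every shNC library in CPM. IL10 measured -0.48 (-1.25 to 0.29) at 0.30 to 0.70 FPKM. The complement genes C1QA, C1QB and C1QC stayed below 0.5 FPKM.

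KLF4 (gene identifier 9314) had the largest estimate, with a wide error. It measured 3.91, 3.38 and 3.64 FPKM in shNC medium and 4.21, 4.18 and 3.64 FPKM in shSPP1#2 medium. Replicates 1 and 2 of shSPP1#2 medium were the highest, and replicate 3 equaled shNC replicate 3. KLF4 had a log2 fold change of 0.13 (SE 0.095, -0.069 to 0.33, edgeR adjusted p = 0.865), and it was 0.21 without shSPP1#2 replicate 3. KLF2 (gene identifier 10365) was the rarest member, with 27, 14 and 20 estimated counts in shNC medium and 17.0, 24 and 19 in shSPP1#2 medium. These are 0.48, 0.28 and 0.35 FPKM, and 0.30, 0.43 and 0.34 FPKM. Its highest and lowest libraries both belonged to shNC medium. KLF2 had a log2 fold change of -0.070 with a standard error of 0.30 (-0.70 to 0.56, edgeR adjusted p = 0.984), and it became 0.15 without shNC replicate 1. At this depth a change of KLF2 of up to 1.47-fold higher, or down to 0.617 of the shNC level, lay inside the interval.

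KLF4 and KLF2 were minor members of a family of 17. By mean FPKM KLF4 had rank 9 and KLF2 rank 12, at 2.16% to 2.58% and 0.178% to 0.302% of the summed FPKM. KLF9, a glucocorticoid-inducible factor, led with 30.8 to 35.4 FPKM, ahead of KLF10, KLF13, KLF6 and KLF16 at means of 28.9, 23.5, 22.4 and 21.8 FPKM. The FPKM ratio of KLF4 to KLF2 was 10.2 ± 1.97 in shNC and 11.5 ± 2.26 in shSPP1#2 medium (SD, n = 3). Of 15 KLF relatives 12 were tested and 0 called, with 10 positive and 2 negative log2 fold changes and a median of 0.077. KLF5 measured 2.43 ± 0.123 and 2.85 ± 0.163 FPKM (0.23, 0.017 to 0.43, edgeR adjusted p = 0.691), KLF7 0.14 and KLF9 0.090 as log2 fold changes. Of 6 genes listed as KLF2 or KLF4 targets, 4 were tested and 0 called (median -0.0091). The cell cycle inhibitor CDKN1A, at 643 to 700.3 FPKM, measured -0.017, the endotoxin co-receptor CD14 -0.0015, and NOS3, at 0.13 to 0.19 FPKM, -0.053. KLF4 lies on chromosome 9 (minus, 107484852 to 107490482) and KLF2 on chromosome 19 (plus, 16324817 to 16327874).

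**Figure D3:**
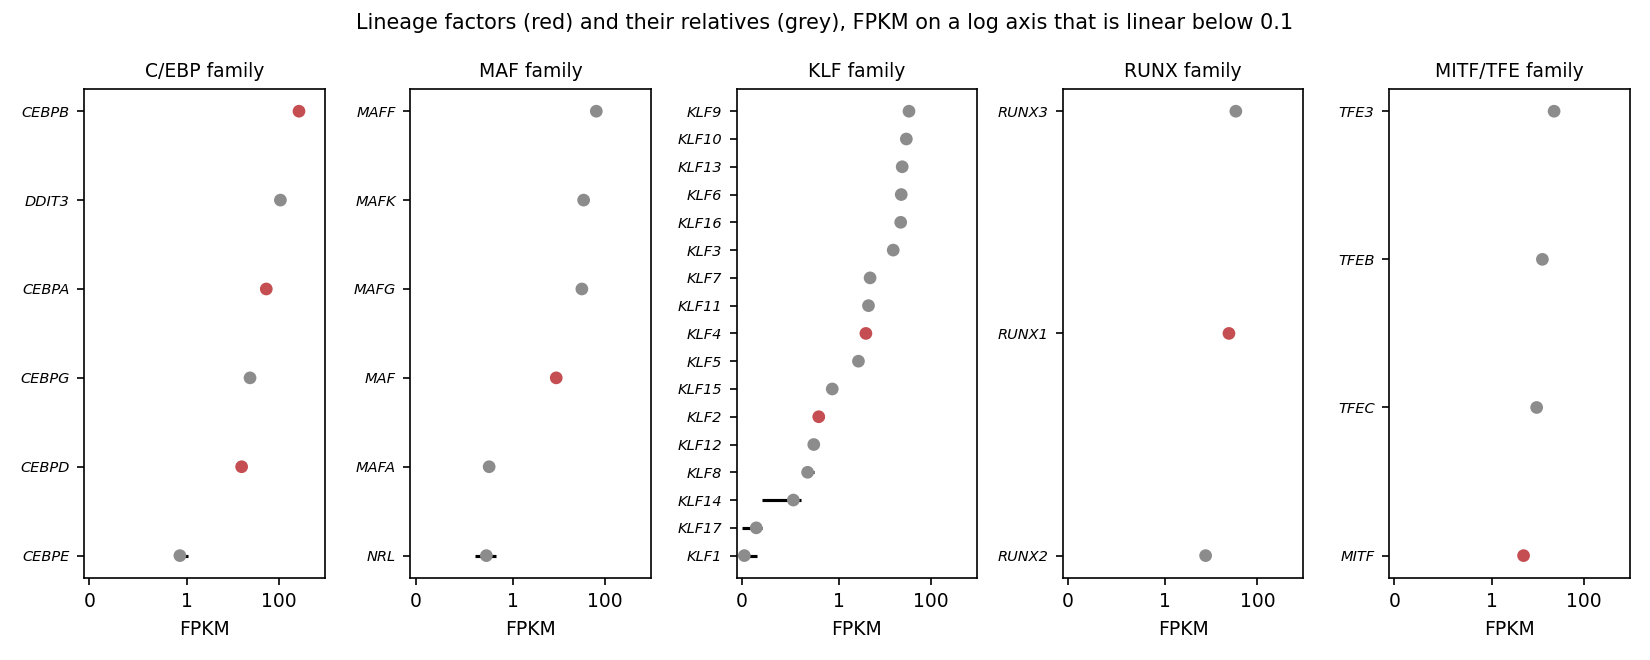
Mean FPKM over the 6 libraries (dots; axis logarithmic above 0.1 and linear below) of the lineage factors in red and selected relatives in grey, by family; lines run from the lowest to the highest library and are mostly hidden by the dots. CEBPB leads its family, while MAF, KLF4, KLF2 and MITF sit below several relatives.

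MITF (gene identifier 4286) measured 4.86, 5.18 and 5.02 FPKM in shNC medium and 5.36, 4.54 and 4.80 FPKM in shSPP1#2 medium. The highest and the 2 lowest values all belonged to shSPP1#2 medium, so the shNC libraries lay inside the range of the other group. The log2 fold change was -0.018 (SE 0.075, -0.17 to 0.14, edgeR adjusted p = 0.984), and its sign turned without shSPP1#2 replicate 2 (0.026) or 3 (0.0070). MITF was the rarest of its 4-member family, at 9.30% to 10.9% of the summed FPKM. TFE3 and TFEB, regulators of lysosome formation, measured 21.7 to 23.7 and 11.3 to 14.4 FPKM, and the myeloid TFEC 8.62 to 10.5 FPKM. None of these 3 relatives was called by edgeR, and none had an unadjusted p below 0.05; their log2 fold changes were -0.043 for TFE3, -0.14 (-0.30 to 0.014) for TFEB and 0.11 (-0.0049 to 0.23) for TFEC, with a median of -0.043. MITF occupies 69739435 to 69968337 of chromosome 3 (plus strand) and has 14 coding transcripts from 12 starts.

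All 14 genes listed as MITF or TFE targets were tested, and 0 were called. They divided into 7 positive and 7 negative log2 fold changes with a median of 0.0093. GPNMB, a glycoprotein of lysosomes and melanosomes, measured 19.3 ± 0.222 FPKM in shNC and 22.0 ± 1.62 FPKM in shSPP1#2 medium (0.18, 0.059 to 0.30, edgeR adjusted p = 0.517), with groups that did not overlap in CPM. OSCAR, an osteoclast-associated receptor, measured 33.4 ± 0.302 and 36.5 ± 2.74 FPKM (0.15, edgeR adjusted p = 0.618). The lysosomal channel MCOLN1 measured -0.18, with every shSPP1#2 library below every shNC library in CPM. The protease CTSB, the most abundant of the list at 465 to 523 FPKM, measured -0.045.

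**Figure D4:**
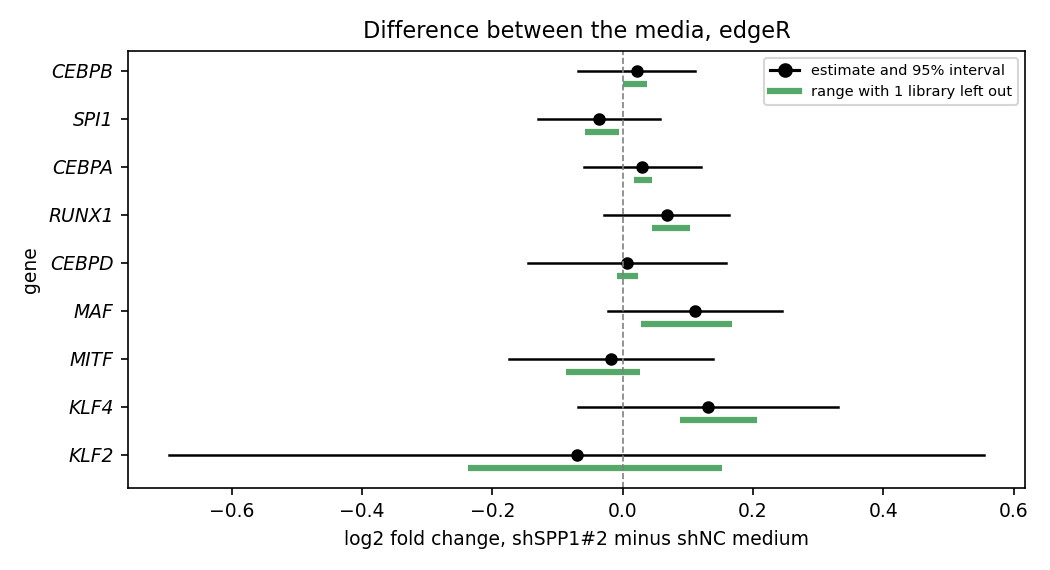
Log2 fold change of each factor, shSPP1#2 minus shNC medium, from edgeR: dots and black lines are estimates with 95% intervals, and green bars the range when 1 library at a time was left out. Every black interval crosses 0, and that of KLF2 runs from -0.70 to 0.56.

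Over the relatives, partners and targets together, 97 of 112 deposited genes were tested and edgeR called 0 at an adjusted p below 0.05. At an unadjusted p below 0.05 there were 13 (13.4%, against 6.85% of tested genes), 8 higher (against 3.45%) and 5 lower (against 3.39%). Groups did not overlap in CPM for 17 (17.5%, against 11.1%), 9 higher and 8 lower. The lists were written with earlier results of these data known, so these shares cannot test whether genes around the factors differ more often. The median log2 fold change of the 97 genes was 0.011. Limma-voom, edgeR with robust dispersion and limma on log2 FPKM called 0 of these 97, and DESeq2 called 0 of the 60 to which it gave an adjusted p, which did not include S100A8. Other edgeR refits did give calls. S100A8 was called with no low-count filter, without shNC replicate 1 and with the replicate number as a block. CCL3 was called without shSPP1#2 replicate 2 and with the block, and S100A9 with the block only. Among these 97 genes, those whose values moved most like MAF over the 6 libraries were ITGAL and ETV6, with root mean square differences of 0.052 and 0.069 on the log2 CPM scale, where the median gene differed by 0.13. Those most like CEBPB were KLF6 and CLCN7, at 0.029 and 0.031 against a median of 0.082. With 6 libraries many genes come as close: 72 of the tested genes lay nearer to MAF than ITGAL, and 340 nearer to CEBPB than KLF6.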

How the data were processed

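Estimated counts and FPKM values per gene were deposited by the authors for 6 libraries. Per the submitters' processing notes, HISAT2 2.0.4, Bowtie2 2.2.5, RSEM and GRCh38.p13 are the tools and build named; the notes as available give no role or order. Annotation, strand use, filters and the definition of length were not given in the sources used here. Per library, the deposited estimated counts were not whole for 78.9% to 80.4% of values (tolerance 0.005). Stray annotation lines were dropped, 20 over the deposited estimated counts and FPKM values together.

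Counts were rounded, filtered with filterByExpr (13555 genes), TMM-scaled and entered into the quasi-likelihood test of edgeR 4.0.16 under R 4.3.3. Log2 fold changes are shSPP1#2 minus shNC. P-values were adjusted by Benjamini-Hochberg over all tested genes, with a call below 0.05. The fit was also run on simulated data, and the outcome is not reported here. Genes given a change there had an average log2 CPM of at least 2, which KLF2 did not reach. No replicate effect was simulated. For 10635 genes whose average log2 CPM reached 2, standard errors of the fold change (log2) had a median of 0.065; libraries held 18113591 to 20626346 estimated counts. Alternatives were other scalings and filters, a replicate block, DESeq2 1.42.0, limma-voom (limma 3.58.1), robust dispersion, each library left out, a looser threshold of 0.10, and limma on FPKM as log2 with 1 or 0.1 added. Replicates differed by more than counting noise (chi-square per degree of freedom 3.20 to 4.33).

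Members and gene lists were chosen with earlier results of these data known. All 9 members are named. From each related list, up to 3 genes of smallest p and the most abundant were named, from marker lists up to 3 of the most abundant, and SPP1. Other names, such as family relatives given for their level, were chosen after their values were seen. Gene models are from GENCODE v29, promoters from RefSeq (GRCh38.p14). Some genes of the related and marker lists are not reported here by name. Plots were drawn with matplotlib 3.10.9.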

Additional observations from a re-analysis of the deposited data

How the results depend on the processing

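The count of called members stayed at 0 under all 17 refits and at an adjusted p below 0.10, and the median log2 fold change of the members ran from 0.016 to 0.029. KLF2 was not tested with a filter of CPM of at least 1 in 3 libraries, and DESeq2 gave no adjusted p to CEBPD, KLF4, KLF2 and MITF. Signs turned, with no call, for KLF2 without shNC replicate 1 (0.15) and shSPP1#2 replicate 1 (0.042), for CEBPD without shNC replicate 2 (-0.0088) and shSPP1#2 replicate 3 (-0.0085), and for MITF without shSPP1#2 replicate 2 (0.026) and 3 (0.0070). Over all tested genes, in place of 0 calls, there were 18 with no low-count filter, 13 with DESeq2 (of 4264 genes with an adjusted p), 3 with robust dispersion, 1 each with limma-voom and limma on log2(FPKM + 0.1), 2 at an adjusted p below 0.10, and 1 to 10 with a library left out. Of the related genes 1 was called with no low-count filter (S100A8) and 0 or 1 with a library left out (S100A8 without shNC replicate 1, CCL3 without shSPP1#2 replicate 2). With the replicate block 59 genes were called, 3 of them related (S100A8, S100A9 and CCL3), and MAF had the smallest unadjusted p of the members, 0.0342 (edgeR adjusted p = 0.417). The labels share replicate numbers without saying what they mark. Same-numbered libraries deviated together with correlations of 0.22, 0.29 and 0.092, and libraries of different numbers had correlations from -0.27 to 0.10. For 1 library, shSPP1#2 replicate 3, the best match had another number (0.10). The main fit did not pair the libraries, but these values do not show that they are unpaired. The cause of the changed calls was not tested. With a library left out, log2 fold changes ran from -0.0088 to 0.023 for CEBPD, from -0.24 to 0.15 for KLF2 and from -0.086 to 0.026 for MITF. Depth limited KLF2, with 14 to 27 counts per library.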

Other observations

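Some transcription factors of other lineages were transcribed in these macrophage libraries at levels within the range of the members. LMO2 and LYL1, partners in early blood-forming complexes, measured 29.3 to 32.5 and 6.92 to 8.99 FPKM, and the lymphoid factor IKZF1 7.19 to 8.71 FPKM, between RUNX1 and MITF in level for LYL1 and IKZF1 and above RUNX1 for LMO2. GFI1, a repressor of granulocyte precursors, measured 7.70 to 8.47 FPKM, while the progenitor factor MYB measured 0.23 to 0.35 FPKM and the erythroid factor GATA1 0 to 0.07 FPKM. Of 14 tested factors of progenitors and other blood lineages (17 deposited), edgeR called 0 at an adjusted p below 0.05, and 1 had an unadjusted p below 0.05. That gene, TBX21, the T-bet factor of T and NK cells, measured 6.29 to 9.48 FPKM and had a log2 fold change of -0.30 (-0.49 to -0.11, edgeR adjusted p = 0.486), with every shSPP1#2 library below every shNC library in CPM; it was named after its values were seen. Summed over 5 deposited T and NK cell markers, levels were 24.1 to 28.1 FPKM in shNC and 22.3 to 23.6 FPKM in shSPP1#2 medium. GZMB (8.19 to 12.2 FPKM), NCR1 and NKG7 led the sum, while CD3G measured 0.18 to 0.38 FPKM and KLRD1 0.79 to 1.29 FPKM. By edgeR 0 of the 5 were called, with 4 negative log2 fold changes and 1 positive. Any link between these markers and TBX21 was not tested.

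Squamous epithelial factors gave 0 calls over 8 tested, led by TFAP2A at 10.7 to 12.2 FPKM, PITX1 at 3.79 to 4.17 FPKM and KLF5. Granule markers of neutrophil precursors were led by AZU1 at 6.77 to 8.54 FPKM, followed by PRTN3 and ELANE, whereas MPO stayed at 0.02 to 0.08 FPKM. Of the B cell markers, CD79A measured 0.47 to 0.89 FPKM and CD79B 0.05 to 0.56 FPKM. Among fibroblast markers COL1A1 measured 16.3 to 19.1 FPKM, PDGFRA 7.58 to 9.03 FPKM and PDGFRB 3.24 to 4.18 FPKM, while DCN and LUM stayed at or below 0.11 FPKM. Among endothelial markers PECAM1, which monocytes also express, measured 132 to 142 FPKM, VWF 0.61 to 0.75 FPKM and TEK 0.13 to 0.30 FPKM.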
